A study of Mus musculus with 7 samples.

Results

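Leukaemia inhibitory factor (LIF) signalling and the Pim kinases were followed through 9 genes, Lifr, Il6st, Stat3, Socs3, Jak1, Jak2, Pim1, Pim2 and Pim3, out of 9213 genes tested. They were chosen by name, as the genes whose symbol in the array's annotation was in that list, and 18 probes carried those symbols. The list was drawn up with earlier results of these data known. Total RNA of 7 mouse lines was read on Illumina bead arrays, 1 array per line. Of these, 6 were epiblast stem cell (EpiSC) lines, named C1a1, T9, E5, E3, OG2.2 and OG2.1, and the line they were set against was R1, of embryonic stem cells (ESCs). The labels name no treatment, and the sources used here give no strain, culture medium, feeder layer or passage. The ESC side therefore rests on 1 line and 1 array, and a difference between cell types cannot be told apart from R1 itself, its culture or its array.

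LIF binds a receptor made of LIFR and gp130, the product of Il6st. The bound receptor activates Janus kinases (JAKs), which phosphorylate the transcription factor STAT3. STAT3 induces Socs3, whose product blocks the receptor, and in mouse ESCs the Pim1 and Pim3 kinase genes are known targets of the pathway. Mouse ESCs depend on this signal for self-renewal, whereas EpiSCs stand for the later epiblast and are usually kept on activin and fibroblast growth factor.

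The labels were checked against marker genes. Of 8 ESC markers, 1 to 4 were above background in the EpiSC lines and 7 in R1, and their summed signal ran from 163.9 to 342.1 in EpiSC lines, against 54180 in R1. Of 8 EpiSC markers, 6 to 7 were above background in the EpiSC lines and 4 in R1, with sums of 30030 to 40790 in EpiSC lines and 5863 in R1. Zfp42, the Rex1 gene of naive cells, averaged 5.36 ± 0.56 (SD, n = 6) in EpiSC lines and 13.22 in R1. Array depth was alike, since 41.4% to 45.0% of probes were above background in EpiSC lines and 41.5% in R1. The number of arrays limits the precision, and p-values measure only the spread between EpiSC lines. The single ESC array adds no spread of its own and is assumed to vary like them.

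Socs3 and Pim2 were the members with the largest differences in either direction, so the region from 250 bases before to 50 after the start of each is shown from RefSeq, build GRCm38.p6. Socs3 lies at chr11:117969317-117969616 on the minus strand and Pim2 at chrX:7878056-7878355 on the plus strand. The capitals mark a match to TTCNNNGAA, the core letters of a STAT site, which reads the same on both strands.
Socs3: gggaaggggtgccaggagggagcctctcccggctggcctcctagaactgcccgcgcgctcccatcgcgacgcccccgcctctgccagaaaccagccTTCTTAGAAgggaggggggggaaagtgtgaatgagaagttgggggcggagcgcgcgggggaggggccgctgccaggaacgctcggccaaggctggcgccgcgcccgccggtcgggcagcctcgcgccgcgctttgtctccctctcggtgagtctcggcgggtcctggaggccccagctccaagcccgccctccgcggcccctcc
Pim2: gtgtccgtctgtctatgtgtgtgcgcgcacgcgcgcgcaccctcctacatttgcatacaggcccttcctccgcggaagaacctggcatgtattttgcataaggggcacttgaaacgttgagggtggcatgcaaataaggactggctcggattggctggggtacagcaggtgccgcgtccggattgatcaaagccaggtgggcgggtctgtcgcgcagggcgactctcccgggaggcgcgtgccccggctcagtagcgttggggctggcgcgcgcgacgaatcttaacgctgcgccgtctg
The Socs3 match, TTCTTAGAA, begins 154 bases before the start. All 9 genes had an entry, with 11 promoters in total, and 1 of the 11 held TTCNNNGAA, against 8.3% of 32851 mouse promoters of that length. The stricter TTCCNGGAA was in 0 of the 11 and in 1.15% of all. A match of letters is a description and not a bound site.

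The first comparison asked how the pathway's genes differed between the EpiSC lines and the ESC line. Levels and differences are on the log2 scale of background-corrected, quantile-normalized intensity, and a gene was called when limma, fitted to all genes, gave a Benjamini-Hochberg adjusted p under 0.05. Of the 9 genes, 6 were lower in EpiSC lines (Lifr, Il6st, Stat3, Socs3, Jak1 and Pim3), 1 was higher (Pim2) and 2 did not pass (Jak2 and Pim1). Over all genes 15.2% were called, 7.1% as higher and 8.11% as lower in EpiSC lines. The median difference was -1.35 for the 9 genes and 0.05 for all genes. Because the 9 were chosen with earlier results of these data known, these counts describe them and are no independent evidence of a shift. R1 lay above all 6 EpiSC lines for 6 of the 9 genes, a position that 26.1% of all genes had, and below all of them for 1, as for 29.7% of all genes. In bulk RNA, fewer cells that express a gene and less RNA per cell cannot be told apart.

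**Figure D1:**
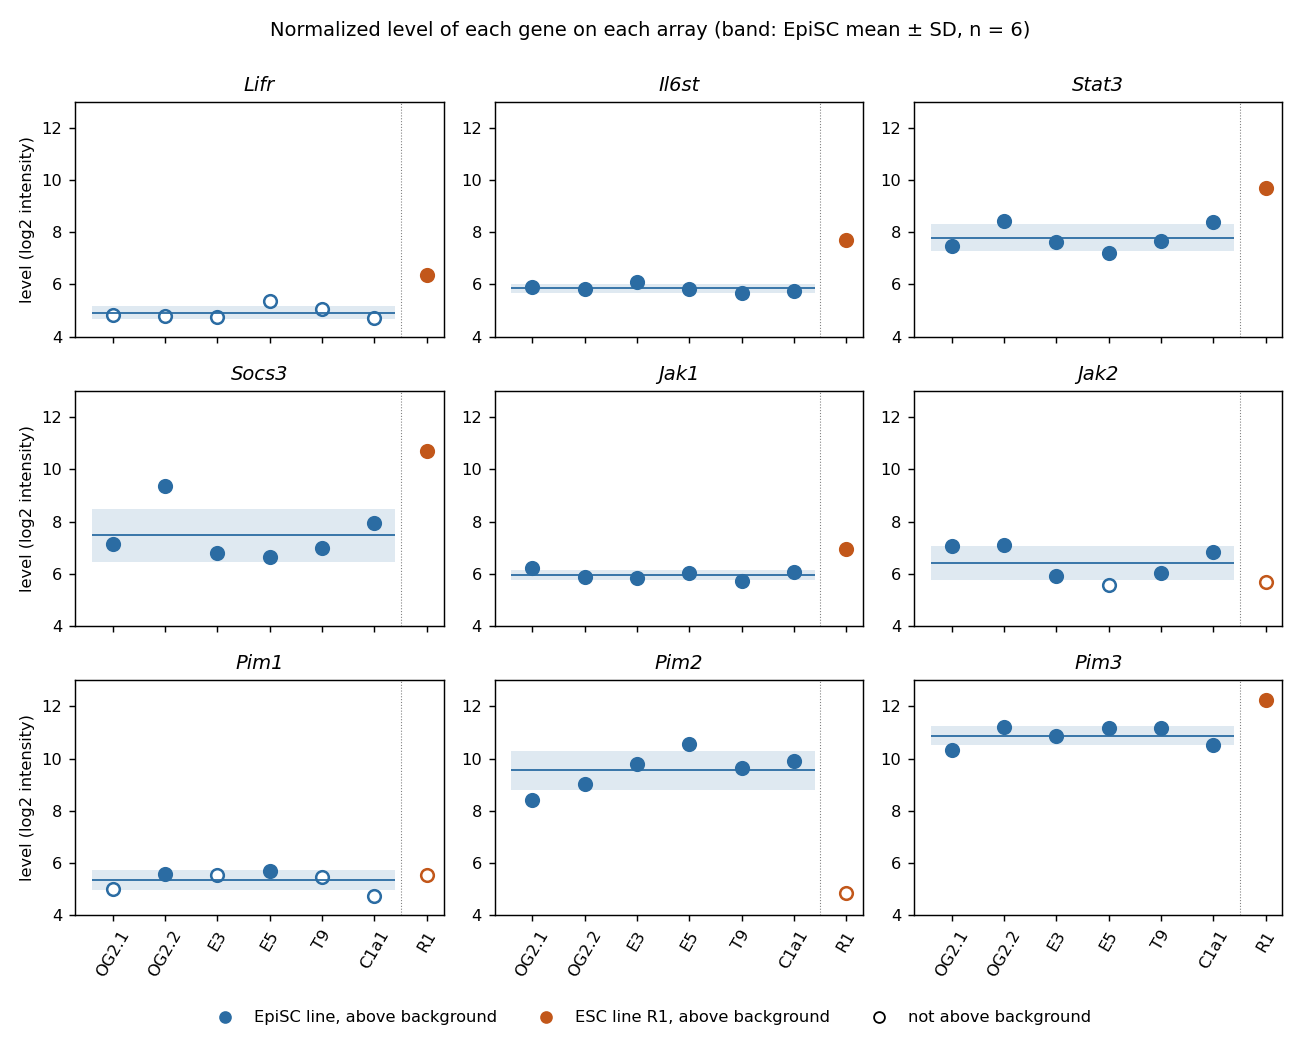
Normalized level (log2 intensity, y axis) of each of the 9 genes on each array, with the 6 EpiSC lines on the left and the ESC line R1 on the right of each panel. Filled points were above the array's background (detection p under 0.01), hollow ones were not, and the line and band are the EpiSC mean ± SD (n = 6). R1 stands above all EpiSC lines for Lifr, Il6st, Stat3, Socs3, Jak1 and Pim3, and below them for Pim2.

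The receptor genes came first in the order of the pathway. Lifr, the chain that gives LIF its specificity, was at 4.83 in OG2.1, 4.80 in OG2.2, 4.75 in E3, 5.38 in E5, 5.05 in T9 and 4.70 in C1a1, against 6.35 in R1. It was above background in R1 and in 0 of the 6 EpiSC lines, so EpiSC lines were at least 1.73-fold lower. The fitted difference was -1.43 (SE 0.30, adjusted p = 0.0151), and Lifr entered the test only because R1 was above background, which favours a negative difference. The other Lifr probes were above background on no array, with levels of 4.78, 4.66, 4.63, 4.78, 4.98 and 4.64 in the EpiSC lines against 5.54 in R1 for the brighter of them. Il6st encodes gp130, the chain shared by the receptors of the interleukin-6 family. It was at 5.90 in OG2.1, 5.84 in OG2.2, 6.11 in E3, 5.82 in E5, 5.66 in T9 and 5.74 in C1a1, against 7.70 in R1. All 7 lines were above background and the groups did not overlap. The 6 EpiSC lines averaged 5.85 ± 0.15 (SD, n = 6), and the difference of -1.85 (SE 0.24) had the smallest adjusted p of the 9 genes in limma, 0.00191. These EpiSC levels lay near the lowest level above background on those arrays, 5.38 to 5.70. An added offset narrows the spread there, which the small SE and p partly rest on.

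The kinases differed from each other. Jak1, the main JAK of gp130 receptors, was at 6.23 in OG2.1, 5.87 in OG2.2, 5.82 in E3, 6.03 in E5, 5.73 in T9 and 6.07 in C1a1, against 6.94 in R1. All EpiSC lines lay below R1, by -0.98 on average (SE 0.26, adjusted p = 0.0381). Jak2, a JAK used by many cytokine receptors, showed no such shift. It was at 7.05 in OG2.1, 7.09 in OG2.2 and 6.83 in C1a1, at 5.89 in E3, 6.04 in T9 and 5.57 in E5, against 5.68 in R1. Jak2 exceeded background in 5 EpiSC lines but in neither E5 nor R1, and its difference of 0.73 (SE 0.59) did not pass (adjusted p = 0.466). A second probe gave 6.19 in OG2.1, 6.24 in OG2.2 and 6.32 in C1a1, 5.69 in E3, 5.64 in T9 and 5.60 in E5, against 5.60 in R1. On both probes the same 3 lines, OG2.1, OG2.2 and C1a1, were the highest. The third Jak2 probe was above background on no array.

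Stat3, the transcription factor at the end of the cascade, was lower in EpiSC lines by -1.91 (SE 0.47, adjusted p = 0.0310). Its brightest probe read 7.46 in OG2.1, 8.44 in OG2.2, 7.61 in E3, 7.21 in E5, 7.68 in T9 and 8.39 in C1a1, against 9.71 in R1. OG2.2 and C1a1 were the highest EpiSC lines, E5 was the lowest, and every EpiSC line was below R1. When all 13396 kept probes were fitted separately, which called 14.2% of them, the other Stat3 probes were at -1.60 (SE 0.56, adjusted p = 0.0961) and -1.66 (SE 0.43, adjusted p = 0.0389), the last above background in R1 and in 2 EpiSC lines, OG2.2 and C1a1. The probe that did not pass still had R1, at 8.94, above every EpiSC line (6.56 to 7.96).

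Socs3, the feedback inhibitor of gp130 and a direct STAT3 target, had the largest decrease among the 9 genes. Before normalization its signal was 238.3 in OG2.1, 739.0 in OG2.2, 193.8 in E3, 185.7 in E5, 230.1 in T9 and 347.4 in C1a1, against 1780 in R1. On the log2 scale these were 7.13, 9.34, 6.78, 6.63, 6.99 and 7.95 in EpiSC lines and 10.70 in R1. OG2.2 came nearest to R1, and the other 5 lines lay well below both. The mean difference was -3.23 (SE 0.90), or 9.37-fold lower in EpiSC lines, with an adjusted p = 0.0472. Without OG2.2, the line nearest to R1, the difference was -3.60 and the call held. With any other EpiSC line left out instead, it was -3.06 to -3.32 and the call ended.

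**Figure D2:**
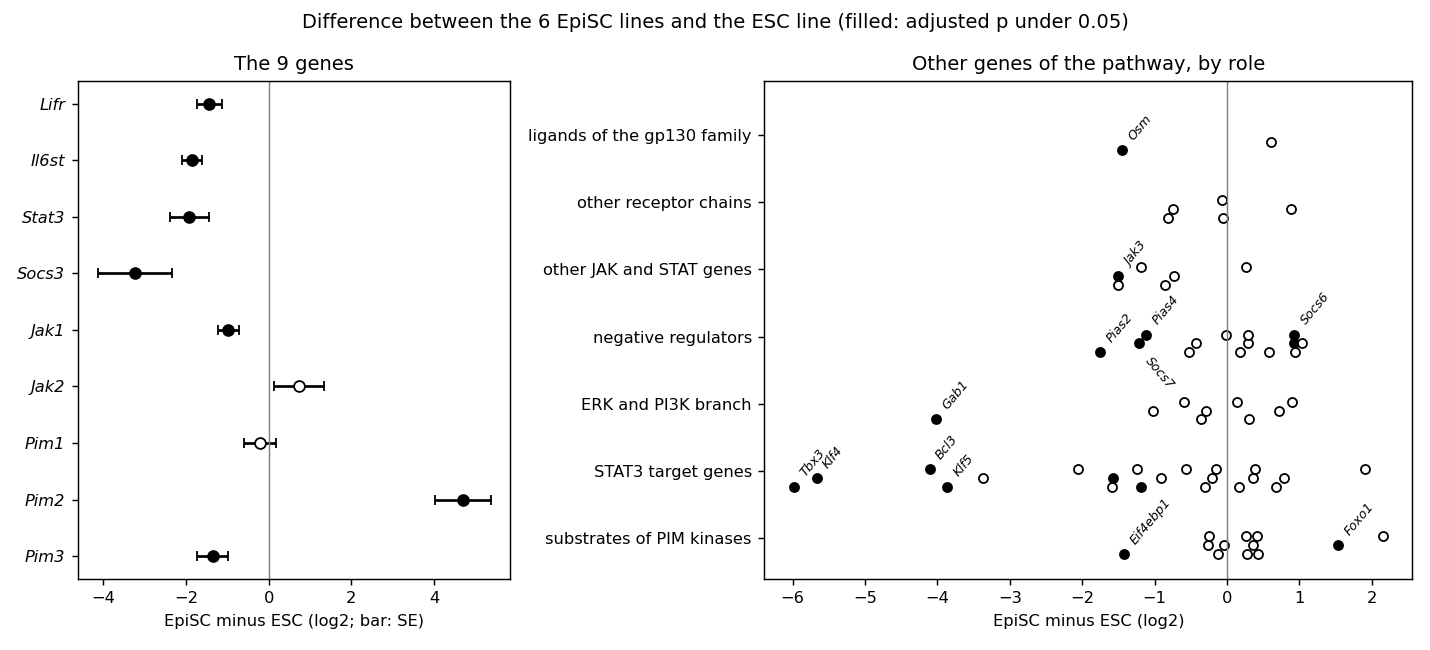
Difference between the EpiSC lines (n = 6) and the ESC line R1 on the log2 scale (x axis), for the 9 genes on the left with bars of 1 SE, and for 69 other tested genes of the pathway on the right, grouped by role. Filled points passed an adjusted p under 0.05. Pim2 stands at 4.69 on the positive side, and Socs3 at -3.23 is the lowest of the 9.

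The Pim genes encode serine/threonine kinases that promote survival and growth and are active once made. Pim2 was higher and Pim3 lower in EpiSC lines, and Pim1 did not pass. Pim2 was above background in all 6 EpiSC lines on each of its 3 probes and on none of them in R1. Its unnormalized signal was 437.7 in OG2.1, 609.5 in OG2.2, 965.6 in E3, 1593 in E5, 946.3 in T9 and 1065 in C1a1, against 120.7 in R1, where the array's median probe was at 126.4. Normalized levels were 8.41, 9.01, 9.79, 10.55, 9.65 and 9.90 in those EpiSC lines and 4.86 in R1. EpiSC lines were at least 14.5-fold higher, with a fitted difference of 4.69 (SE 0.67, adjusted p = 0.00291) that is read against a background value in R1. Pim2 entered the test only through the EpiSC lines, which favours a positive difference. The other probes placed it at least 9.99-fold and 5.77-fold higher, at 3.99 (SE 0.58, adjusted p = 0.00307) and 3.45 (SE 0.76, adjusted p = 0.0194).

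Pim3 moved against Pim2. It was at 10.34 in OG2.1, 11.22 in OG2.2, 10.86 in E3, 11.17 in E5, 11.16 in T9 and 10.54 in C1a1, against 12.23 in R1. All lines were above background, the groups did not overlap, and EpiSC lines were lower by -1.35 (SE 0.37, adjusted p = 0.0471). For Pim1 the probes disagreed. The brighter probe was above background in OG2.2 and E5 only and gave 5.0 in OG2.1, 5.59 in OG2.2, 5.54 in E3, 5.71 in E5, 5.48 in T9 and 4.72 in C1a1, against 5.54 in R1, a difference of -0.20 (SE 0.39, adjusted p = 0.775). The other was above background in OG2.2 (5.94) and R1 (6.73) only, with 4.54 to 5.21 in the remaining EpiSC lines. In the fit of every probe it was at -1.74 (SE 0.48, adjusted p = 0.0478). Both probes are annotated to the same transcript, so the level of Pim1 is uncertain.

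**Figure D3:**
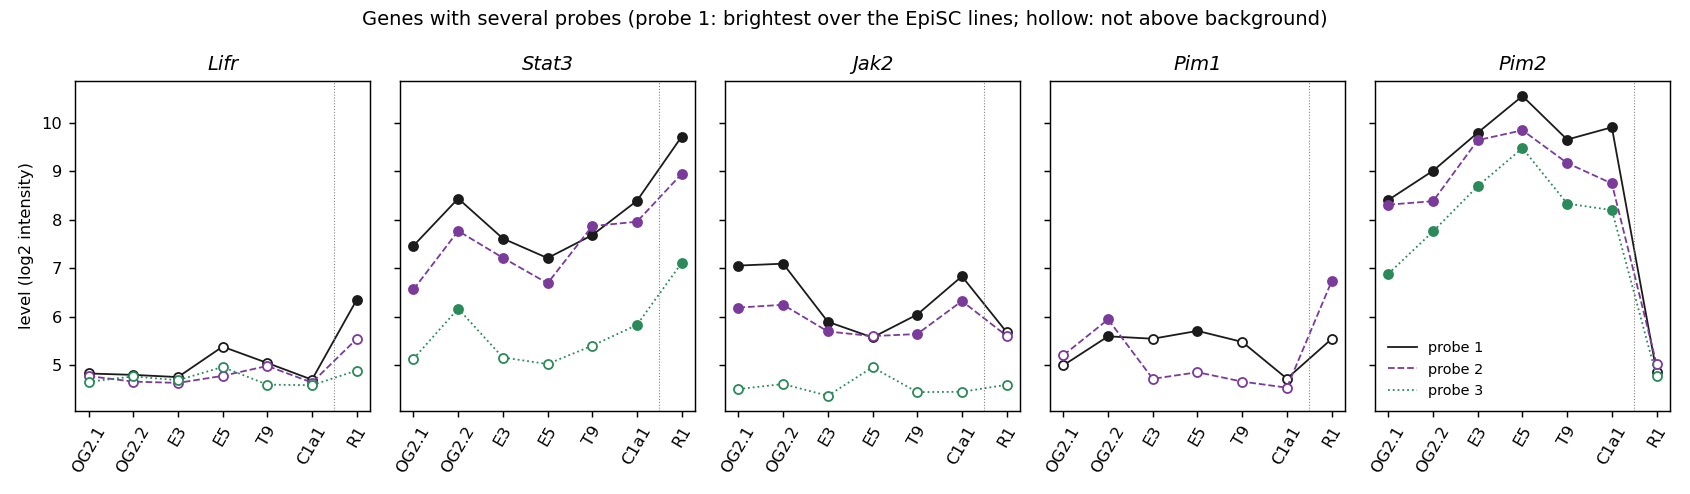
Level (log2 intensity, y axis) of every probe of the 5 genes with more than 1 probe, on the 6 EpiSC arrays and then R1. Lines join the values of 1 probe and are no time course, and hollow points were not above background. The Stat3 probes and the Pim2 probes keep R1 on the same side of all EpiSC lines, whereas the Pim1 probes differ in R1 (5.54 and 6.73).

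How firmly these calls stand differs. Lifr, Il6st and Pim2 passed in all 13 alternatives tried in processing and in the lines included, though Lifr was above background in no EpiSC line and Il6st was dim in them. Stat3 passed in 10, and Socs3, Jak1 and Pim3 in 6 each, while their differences kept their sign in all 13. That sign says little about firmness. For these genes R1 lay outside the range of the EpiSC lines, so leaving out 1 line could not turn it. Other detection filters and the other variance model left the differences as they were, and all 13 used the same R1 array. The Stat3 call ended without E3 or without T9. That of Socs3 ended without OG2.1, E3, E5, T9 or C1a1, and those of Jak1 and of Pim3 each ended without OG2.2, E3, T9 or C1a1. With E3 or T9 left out, 3 of the 9 genes were called, and 4 without C1a1.

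Cells other than pluripotent ones could be in the cultures, so markers of other cell types, first of fibroblasts and feeders, were set beside these results. Of 15 such markers, 4 to 7 were above background in the EpiSC lines and 6 in R1, and their summed signal ran from 1540 to 4094 in EpiSC lines, against 1227 in R1. Col1a2, Col3a1, Lum, Postn, S100a4, Pdgfrb and Twist2 were above background on no array. Of the 8 that were above background on some array, all EpiSC lines lay above R1 for 5 and below it for 2. Thy1 was higher in EpiSC lines by 2.54 (SE 0.45, adjusted p = 0.00822) and Mmp2 by 2.04 (SE 0.55, adjusted p = 0.0412), whereas Loxl1 was at 4.47 to 6.70 in EpiSC lines and 7.06 in R1, and Pdgfra at 4.62 to 5.83 in EpiSC lines and 6.37 in R1. The summed signal was highest in OG2.1 (4094), which had the lowest Pim2 level of the EpiSC lines, and next in E5 (3724), which had the highest. Dcn was also highest in these lines, at 8.99 in OG2.1 and 9.30 in E5. It was at 4.69 to 6.82 in the other EpiSC lines and 4.46 in R1. Extraembryonic endoderm markers had summed signals of 184.1 to 1170 in EpiSC lines and 1502 in R1, with 2 to 4 of 6 above background in EpiSC lines and 4 in R1. Of these, Gata6 (4.61 to 8.83 in EpiSC lines, 9.24 in R1), Dab2 (6.80 to 8.18 in EpiSC lines, 9.35 in R1) and Amn (4.92 to 6.10 in EpiSC lines, 7.62 in R1) had R1 above every EpiSC line. Sox17 was at 4.69 to 8.60 in EpiSC lines, a range that held R1, at 6.28. Gata4 and Afp were above background on no array. Of 5 blood markers, 0 to 1 were above background in EpiSC lines and 0 in R1. The part of such cells in the differences was not tested.

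The rest of the pathway was read from 7 gene lists arranged by role, with 101 genes listed, 91 on the array and 69 tested. Of the 69, 13 were lower and 3 higher in EpiSC lines, and their median difference was -0.21. This is 18.8% of the genes lower and 4.35% higher, against 8.11% and 7.1% over all genes. These lists, too, were drawn up with earlier results of these data known. Of the 13 decreases, 4 were of genes that entered the test only through R1.

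Few ligand genes were above background in any line. Lif itself was not, with a highest level of 5.42 and a lowest detection p of 0.0175, nor were Il6, Il11, Cntf, Ctf2, Clcf1, Il27 or Ebi3. Of the 2 ligand genes tested, Osm, the gene of oncostatin M, was above background in R1 alone and at least 1.35-fold lower in EpiSC lines (-1.45, SE 0.23, adjusted p = 0.00511). Without a detection filter another Osm probe represented the gene, at -0.08 (adjusted p = 0.912). Ctf1, the cardiotrophin 1 gene, was at 6.76 ± 0.42 (SD, n = 6) in EpiSC lines and 6.16 in R1, a difference that did not pass (adjusted p = 0.382). Of the 5 other receptor chains tested, 0 passed in limma, and 1 had an unadjusted p under 0.05, the interferon receptor chain gene Ifnar2 (-0.75, SE 0.29), named after its values were seen. The interferon gamma receptor genes Ifngr1 (0.89, adjusted p = 0.234) and Ifngr2 (-0.81, adjusted p = 0.422) lay furthest from 0.

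Among 6 other JAK and STAT genes, 1 fell (16.7%, against 8.11% over all genes) and 0 rose, with a median of -1.02. Jak3, the JAK of the common gamma chain receptors, was at 7.11 ± 0.36 (SD, n = 6) in EpiSC lines and 8.61 in R1, lower by -1.50 (SE 0.37, adjusted p = 0.0293). That call ended with the mean of its probes (-1.09, adjusted p = 0.107) and without T9 (adjusted p = 0.0554). Stat5a, a STAT of cytokine and hormone receptors, was at -1.51 (SE 0.47) and did not pass (adjusted p = 0.0684), though it did without OG2.2 (adjusted p = 0.0352). Genes listed here as negative regulators split, with 2 of 14 higher (14.3%, against 7.1% over all genes) and 3 lower (21.4%, against 8.11%). The effect of each on the pathway in these cells was not tested. The STAT inhibitor and SUMO ligase genes Pias2 and Pias4 fell by 1.75 (SE 0.22, adjusted p = 0.00153) and by 1.12 (SE 0.24, adjusted p = 0.0180). Ptpn11, named after its values were seen, rose by 0.92 (SE 0.21, adjusted p = 0.0207). The SOCS box genes Socs7 (-1.21, adjusted p = 0.0339) and Socs6 (0.93, adjusted p = 0.0476) went opposite ways. Both adjusted p lay near the threshold. The Socs7 call ended without OG2.1, OG2.2, E3 or E5 and with no background correction (adjusted p = 0.0858). That of Socs6 ended without OG2.1, OG2.2, T9 or C1a1, with the deposited values (adjusted p = 0.0579) and with median scaling (adjusted p = 0.0621).

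Of 9 genes on the ERK and PI3K branch of the receptor, 1 fell, or 11.1%, against 8.11% over all genes. Gab1, the docking protein that links gp130 and growth factor receptors to PI3K and ERK, was at 9.27 in OG2.1, 8.58 in OG2.2, 8.83 in E3, 7.86 in E5, 8.78 in T9 and 8.76 in C1a1, against 12.70 in R1. The difference of -4.02 (SE 0.44, adjusted p = 8.27e-04) was larger than that of Socs3. Pik3cb, a catalytic subunit of PI3K, was at -1.02 and did not pass (adjusted p = 0.0642).

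Genes listed here as STAT3 targets gave 6 decreases (28.6%, against 8.11% over all genes) and 0 increases among 21 tested, with a median of -0.92. Whether STAT3 or another branch of LIF signalling acts on each of them, Tbx3 included, was not tested. Of the 21, 4 entered the test only through R1 (Tbx3, Bcl3, Pramel7 and Bcl6), which favours a negative difference, and they include 3 of the 6 decreases. Several of them are also markers of the naive ESC state, so the list is not independent of the cell type labels. Tbx3, a T-box factor gene of naive cells, was above background in R1 alone and at least 35.4-fold lower in EpiSC lines (-5.98, SE 0.38, adjusted p = 4.93e-05). Klf4, a Kruppel-like factor gene of the naive network, was at 5.63 ± 0.30 (SD, n = 6) in EpiSC lines and 11.29 in R1 (-5.67, SE 0.33). Bcl3, an IkB-family coactivator gene, was at least 9.02-fold lower in EpiSC lines, where it was above background in none. Klf5 was at 8.49 ± 0.71 (SD, n = 6) in EpiSC lines and 12.35 in R1, lower by -3.87 (SE 0.64, adjusted p = 0.00612).

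Of 12 tested genes for substrates of PIM kinases, 1 rose and 1 fell, with a median of 0.27. Each is 8.33% of the list, near the 7.1% higher and 8.11% lower over all genes. Foxo1, a forkhead factor gene, was at 9.07 ± 0.30 (SD, n = 6) in EpiSC lines and 7.53 in R1 (1.54, SE 0.33, adjusted p = 0.0165). Eif4ebp1, the gene of the translation repressor 4E-BP1, was at 12.25 ± 0.31 (SD, n = 6) in EpiSC lines and 13.68 in R1 (-1.42, SE 0.33, adjusted p = 0.0242).

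The second comparison set each EpiSC line against the other 5, which the series title, on differences between EpiSC lines, asks for. Over 54 such comparisons of the 9 genes, limma called 0 (adjusted p from 0.531 to 1.00), with 3 at an unadjusted p under 0.05. Over all genes it called 0.0434% in OG2.1, 0% in OG2.2, 0.0651% in E3, 0% in E5, 0.0109% in T9 and 0.0651% in C1a1. Of 9213 genes, 551 in OG2.1, 487 in OG2.2, 574 in E3, 746 in E5, 201 in T9 and 559 in C1a1 had an unadjusted p under 0.05 in limma. The 3 of 54 is near the share over all genes, so the unadjusted p-values given below single out no line. No line was sampled again, so neighbours in the order of levels could not be tested, and the spread is given as a description. The median SD over the 6 lines was 0.30 among 6639 genes above background in all of them.

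Socs3 varied the most of the 9, with an SD of 1.03 and a span of 2.72. It was at 9.34 in OG2.2 against 7.10 ± 0.52 (SD, n = 5) in the other EpiSC lines, a difference of 2.25 (SE 0.48, unadjusted p = 0.00221, adjusted p = 0.531 in limma). In order, Socs3 was highest in OG2.2, then C1a1, OG2.1, T9, E3 and E5. On its brightest probe Stat3 had an SD of 0.50, and OG2.2 (8.44) and C1a1 (8.39) also headed its order, followed by T9, E3, OG2.1 and E5. A second probe, also above background on every array, was highest in C1a1 (7.96), T9 (7.87) and OG2.2 (7.77) and lowest in OG2.1 (6.56), so the order of the lines differed between probes. OG2.2 minus the others was 0.77 for Stat3 (SE 0.42, adjusted p = 0.992). OG2.2 was also the line in which both Pim1 probes were above background.

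Pim2 had an SD of 0.75, and its order ran from E5 (10.55) through C1a1, E3, T9 and OG2.2 to OG2.1 (8.41). OG2.1 was at 8.41 against 9.78 ± 0.55 (SD, n = 5) in the other EpiSC lines, a difference of -1.37 (SE 0.50, unadjusted p = 0.0292, adjusted p = 0.799 in limma). E5 lay 1.20 above the others (adjusted p = 0.639). All 3 Pim2 probes had E5 as the highest and OG2.1 as the lowest line. Pim3 was also lowest in OG2.1, by -0.65 (adjusted p = 0.883), with a narrower SD of 0.37.

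Jak2 had an SD of 0.66 and was lowest in E5, at 5.57 against 6.58 ± 0.57 (SD, n = 5) in the other lines (adjusted p = 0.659 in limma). Il6st and Jak1 varied least, with SDs of 0.15 and 0.18, below the median SD of genes above background in all lines. Both were dim in EpiSC lines, at 5.66 to 6.11 and 5.73 to 6.23. The lowest level above background was 5.38 to 5.70 on those arrays. An added offset narrows differences at such levels, so a small SD there need not mean a steady gene. Lifr was highest in E5, by 0.56 (adjusted p = 0.613), where it was still not above background. Pim1 on its brighter probe was lowest in C1a1, by -0.74 (unadjusted p = 0.0485, adjusted p = 0.821).

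**Figure D4:**
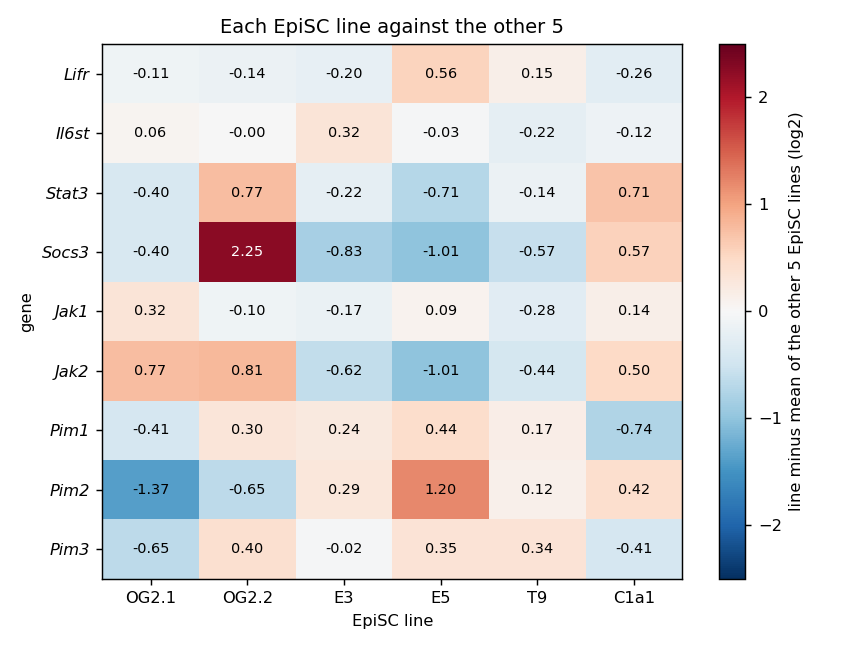
Each EpiSC line minus the mean of the other 5 (log2, colour and number) for the 9 genes (rows) and 6 lines (columns). The largest value is that of Socs3 in OG2.2 (2.25), and the lowest that of Pim2 in OG2.1 (-1.37); none of the 54 passed.

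The genes whose levels ran most like those of Stat3, Socs3 and Pim2 over the 6 EpiSC lines were taken from 6638 genes above background in all 6. These are the 3 members that were above background in all 6 lines and spanned at least 1. With so few points, which share arrays and normalization, the values describe these arrays only. Among 6638 candidates some high r arise by chance, and how many genes chance would place over 0.9 was not tested. Closest to Socs3 were Ube2o, a ubiquitin-conjugating enzyme gene (Pearson's r = 0.991 over 6 lines), Adamts15, a secreted protease gene (0.985), and the copper transporter gene Slc31a1 (0.983), with 70 genes at an r over 0.9. Closest to Stat3, on its brightest probe, were P4hb, the protein disulfide isomerase gene (0.986), Fam83g (0.984) and the recombination gene Rad51c (0.984), with 113 genes over 0.9. With the mean of each gene's probes these were 0.912, 0.916 and 0.972. Closest to Pim2 were Atad5, a replication clamp unloader gene (0.989), Igsf1, a membrane glycoprotein gene (0.975), and E4f1 (0.973), with 61 genes over 0.9. Likeness among the EpiSC lines did not carry over to R1 for most of these genes. Igsf1 (7.67 to 8.43 in EpiSC lines, 4.91 in R1) had R1 on the same side as Pim2, and Rad51c (5.95 to 7.34 in EpiSC lines, 7.83 in R1) on the same side as Stat3. E4f1 (6.31 to 6.91 in EpiSC lines, 6.95 in R1), P4hb, Fam83g, Adamts15 and Slc31a1 had R1 on the side opposite to their member. Atad5 and Ube2o had R1 within the range of the EpiSC lines.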

How the data were processed

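RNA of 6 EpiSC lines and 1 ESC line was measured on 7 single-colour Illumina arrays. The deposited intensity values are probe signals on a linear scale; their medians differ between arrays, so they were not normalized, and their lowest values of 83.2 to 89.8 show no background subtraction. Each signal has a detection p-value, per the file headers, taken here as set against the array's negative controls. The authors also deposited log2 values that share 1 distribution over all arrays (median 3.98 in each) and whose background treatment is not stated, and each column was matched to its own array (r of deviations at least 0.854). BeadStudio 3.2, RMA and lumi are named in the submitters' processing notes, with no order.

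Intensities were normalized with neqc (limma 3.58.1, R 4.3.3, offset 16). Of 25697 probes, 13396 had a detection p under 0.01, the meaning of above background, on at least 1 array and were kept. The annotation gave 23978 probes 1 symbol and 1719 none. Symbols were updated through gene IDs, and the brightest kept probe stood for each of 9213 genes. The limma fit covered all genes and was 2-sided, with 5 residual degrees of freedom between cell types and 4 for a line against the other 5. The script was tested on simulated data.

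A lower bound on a fold sets the side not above background at the lowest level among probes above background on each array, or at the probe's own level if higher. An added offset understates folds of dim genes. The members and gene lists were chosen with earlier results of these data known. The text names all members, up to 4 called genes of each list by size (or the 2 largest differences where fewer than 2 passed), the 3 genes most like a member, and markers. Alternatives were median scaling, uncorrected background, the deposited values, other detection filters, the mean of probes, another variance model, each line left out, the other probes and EpiSC arrays normalized alone. The files name no slide, so a block for slides was not run.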

Additional observations from a re-analysis of the deposited data

Results flagged for a closer look

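Among 33 named genes examined over the 6 EpiSC lines, 2 had a line that stood far from the rest by Dixon's test, which chance does in about 1 group in 20. Thy1, a fibroblast and feeder marker, was at 9.61 in E5, with the next line at 8.74. Osm was at 4.80 in E3, with the next line at 4.59, and was not above background in either.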

How the results depend on the processing

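The count of members called between cell types was 7, and it was 4 with no detection filter and from 3 to 6 when a line was left out. The Stat3 call was lost with no detection filter (adjusted p = 0.0532) and on its second probe, that of Socs3 with the deposited values (0.0674) and with no filter (0.0942), and that of Pim3 with the deposited values (0.0627), median scaling (0.0524) and no filter (0.0665). The Jak1 call was lost with no background correction (0.0607), median scaling (0.0508) and the trended variance (0.0715). Of 123 values of the members under the alternatives, 0 changed sign. All of them used the same R1 array, and many of the alternatives could not change a sign, so this count is a description. Without background correction the differences shrank to -0.53 for Lifr and 2.83 for Pim2. Genes called between cell types numbered 1130 to 1469 (1401 in the report), and pathway genes 14 to 19 (16 in the report). Gene calls over the 6 line comparisons totalled 17, 3 with the deposited values, 8 with no background correction and 3 to 16 when a line was left out, and 0 members were called in each. No paired analysis was possible because the replicate numbers only name the lines and the ESC group holds 1 array. Dim signals limit Lifr, Pim1 and Osm, which lay near background, and also Il6st and Jak1, which were dim in the EpiSC lines.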
